A study of Mus musculus with 6 samples.

Results

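Whole cell extract DNA was the Cy3 channel of all 6 promoter arrays in the series, 6 of its 12 channels, and is described here on its own. Members were the log2 processed green signals of non-control autosomal probes, centred on each array's autosomal median, so that 0 is the median autosomal probe of that array and 1 unit is 2-fold. Probes flagged as outliers in any input of a design were left out, which kept 456213 of 474380 probes, 236934 on array 1 and 219279 on array 2. The inputs came from chromatin immunoprecipitation followed by array hybridisation (ChIP-chip) with antibodies to SMAD1/5, SMAD2 and SMAD4, on a pair of array designs each. All came from R1 cells, a male mouse embryonic stem cell line, kept undifferentiated without feeders and with leukemia inhibitory factor (LIF); the cells were cross-linked with formaldehyde and their chromatin was sonicated to fragments averaging 300 to 500 bp, and no genotype or treatment differed between the groups, per the labels. The antibodies were raised against linker regions of human SMAD proteins. The protocol text of both SMAD2 arrays names the SMAD1/5 antibody, while their titles and sample types name SMAD2, and the titles were followed. The labels do not say whether the 3 inputs came from separate cultures, and the series has 1 biological replicate per antibody, so no p-value is given, and the errors printed measure the spread among probes (or genes) of a single array. Being genomic DNA, the inputs carry no expression with which the cell type could be checked.

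Input chromatin is taken before any antibody is added. It therefore holds every part of the genome, in proportion to its copy number and to how well each stretch is sheared, recovered, labelled and hybridised. ChIP-chip divides the immunoprecipitate by this channel at each probe, so that a dip or a rise of the input passes into the ratio with its sign turned. SMAD1 and SMAD5 carry signals of bone morphogenetic proteins (BMP) and SMAD2 those of Activin and Nodal, with SMAD4 as their common partner, but the antibody does not touch the input.

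The inputs differed most in their spread. The SD over autosomal probes was 2.32 and 2.19 log2 units in the SMAD1/5 input on arrays 1 and 2, 1.69 and 1.66 in the SMAD2 input, and 1.66 and 1.62 in the SMAD4 input. The SMAD1/5 input had a long upper tail, with 15.8% and 12.9% of its probes 3 or more log2 units above the median, against 3.47% and 3.39% in the SMAD2 input and 1.83% and 1.73% in the SMAD4 input. Its mean lay 0.76 and 0.40 above its median, and its 95th percentile was 5.98 and 5.04, against 2.72 and 2.70 in the SMAD2 input and 2.31 and 2.27 in the SMAD4 input. The lower end was cut short in the SMAD1/5 and SMAD2 inputs. The lowest value was -1.51 and -2.38 in the SMAD1/5 input, -2.94 and -2.80 in the SMAD2 input, and -6.03 and -6.23 in the SMAD4 input. Signals too weak to measure were replaced by a surrogate value at 27.5% and 11.9% of SMAD1/5 probes, 11.4% and 13.0% of SMAD2 probes, and 0.376% and 0.218% of SMAD4 probes. The median background-subtracted signal was 1.64 and 4.76 times the SD of the negative control spots for SMAD1/5, 6.51 and 5.83 times for SMAD2, and 45.7 and 52.7 times for SMAD4. A control probe spotted 480 times had an SD of 0.29 and 0.19 log2 units in the SMAD1/5 input, 0.33 and 0.28 in that of SMAD2, and 0.12 and 0.09 in that of SMAD4, well under the spread between probes. These SDs come from that control alone, and the repeat scatter of other probes, dim ones included, was not measured.

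**Figure D1:**
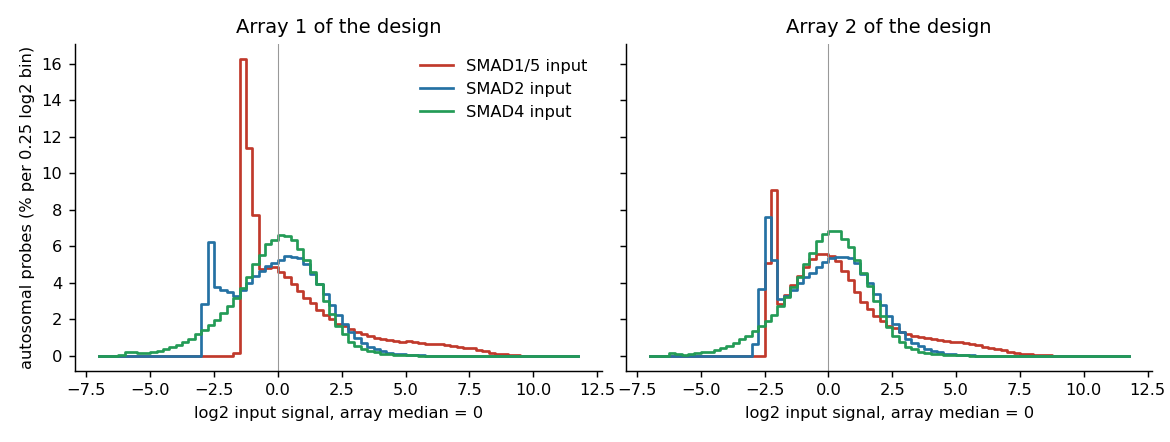
Share of autosomal probes in each 0.25 log2 bin of input signal, with the array median at 0, for the 3 inputs on array 1 and array 2. The SMAD1/5 input ends in a long tail beyond 5 log2 units, while the SMAD4 input alone extends below -3.

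Probe by probe, the inputs resembled each other only in part. Pearson's r over the probes of arrays 1 and 2 was 0.46 and 0.51 between the SMAD1/5 and SMAD2 inputs, 0.40 and 0.41 between SMAD1/5 and SMAD4, and 0.54 and 0.54 between SMAD2 and SMAD4. The likeness was greater among short probes, from 0.57 to 0.66 over the 45-base probes of the 3 pairs, than among 60-base probes, from 0.18 to 0.36. These coefficients describe probes that share an array and a sequence and are not independent. Differences between inputs were shared by neighbouring probes over a short distance. For probes 50 to 150 bp apart, the difference SMAD1/5 minus SMAD2 correlated at 0.39 and 0.44, SMAD1/5 minus SMAD4 at 0.44 and 0.46, and SMAD2 minus SMAD4 at 0.39 and 0.40. At 250 to 400 bp these values lay between 0.11 and 0.14, and at 700 to 1500 bp between 0.00 and 0.03. The levels of the SMAD4 input kept a correlation of 0.17 at that distance on both arrays, against 0.08 for SMAD2 and 0.04 for SMAD1/5.

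Where the probes lay relative to genes went with the input level, and so did their length. Around transcription start sites, the mean input within 250 bp exceeded that 2000 bp or more upstream by 1.16 ± 0.020 and 1.09 ± 0.019 log2 units (SE over probes) in the SMAD1/5 input on arrays 1 and 2, by 0.82 ± 0.014 and 0.79 ± 0.015 in the SMAD2 input, and by 0.99 ± 0.014 and 0.90 ± 0.014 in the SMAD4 input. Probes near the start site were shorter: 52.3% and 52.7% of them had 45 bases, against 8.57% and 8.74% upstream, and 14.9% and 14.5% had 60 bases, against 49.8% and 49.6%. Mean input fell off with probe length in each input, and 45-base probes exceeded 60-base probes by 2.63 and 2.39 in the SMAD1/5 input, 2.20 and 2.13 in the SMAD2 input, and 1.95 and 1.83 in the SMAD4 input. Over 60-base probes alone, near minus upstream was -0.01 ± 0.038 and -0.18 ± 0.041 in the SMAD1/5 input, -0.03 ± 0.028 and 0.03 ± 0.029 in the SMAD2 input, and 0.12 ± 0.032 and 0.19 ± 0.033 in the SMAD4 input (SE). Taken within each of 16 probe lengths and weighted by the lengths of the near probes, it was -0.02 ± 0.023 and 0.04 ± 0.021 in the SMAD1/5 input, -0.20 ± 0.016 and -0.20 ± 0.017 in the SMAD2 input, and 0.12 ± 0.016 and 0.07 ± 0.016 in the SMAD4 input. Single lengths ranged from -0.39 to 0.24 in the SMAD1/5 input, from -0.38 to 0.03 in the SMAD2 input and from -0.09 to 0.35 in the SMAD4 input. The base composition of the probes was not analysed here.

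**Figure D2:**
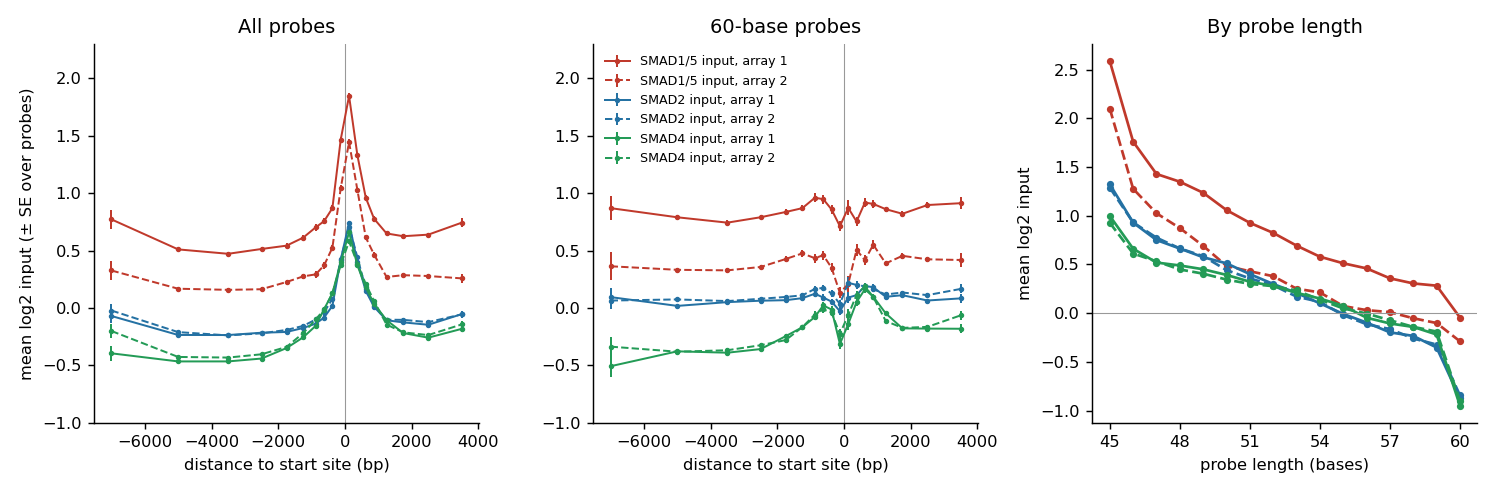
Mean log2 input (error bars, SE over probes) by distance to the start site for all probes (left) and for 60-base probes alone (middle), and by probe length (right), for the 3 inputs on arrays 1 and 2. In the middle panel each input was centred on the median of the 60-base autosomal probes of its array. Levels there cannot be set beside those of the other panels. The peak at the start site in the left panel is missing from the middle panel. In the right panel every input falls from 45-base to 60-base probes.

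Input also varied with the annotation's position class. Probes inside genes averaged 0.91 and 0.55 in the SMAD1/5 input, 0.10 and 0.11 in the SMAD2 input, and 0.05 and 0.06 in the SMAD4 input. Promoter probes averaged 0.64 and 0.29 in the SMAD1/5 input, -0.14 and -0.13 in the SMAD2 input, and -0.28 and -0.25 in the SMAD4 input. Probes downstream of genes were lowest, at 0.34 and -0.0039 in the SMAD1/5 input, -0.53 and -0.47 in the SMAD2 input, and -0.87 and -0.85 in the SMAD4 input, and 59.98% and 61.28% of them had 60 bases, against 34.9% and 34.2% inside genes. Probes of divergent promoters, which serve a pair of genes on opposite strands, averaged 0.87 and 0.52 in the SMAD1/5 input, 0.09 and 0.09 in the SMAD2 input, and 0.10 and 0.15 in the SMAD4 input.

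CpG content of the promoter went with the input as well. CpG islands, stretches dense in the dinucleotide CG, cover the start sites of most housekeeping and many developmental genes. CG, the same on both strands, was counted in the RefSeq promoter of each gene, from 250 bases before to 50 after the start. Of 22862 promoters in that table, 93.8% held at least 1 CG, 34.5% held 15 or more and 39.7% held 0 to 4. Of the genes with 1 promoter, 8329 had probes near their start site. A few promoters are shown to set the extremes beside each other: Skint3, a T cell selection gene and among the lowest input levels, 1700001J03Rik, among the highest, and the CpG-rich Klf4, a pluripotency factor, Grem1, a secreted BMP antagonist, and Id3, an inhibitor of basic helix-loop-helix factors and a classical BMP target. The lines give the 250 bases before the start in GRCm38.p6, 5′ to 3′ along the gene, with every CG in capitals. They are Skint3 at chr4:112231995-112232244 on the plus strand, 1700001J03Rik at chr5:146185305-146185554 on the minus strand, Klf4 at chr4:55532476-55532725 on the minus strand, Grem1 at chr2:113758649-113758898 on the minus strand, and Id3 at chr4:136143572-136143821 on the plus strand.
Skint3: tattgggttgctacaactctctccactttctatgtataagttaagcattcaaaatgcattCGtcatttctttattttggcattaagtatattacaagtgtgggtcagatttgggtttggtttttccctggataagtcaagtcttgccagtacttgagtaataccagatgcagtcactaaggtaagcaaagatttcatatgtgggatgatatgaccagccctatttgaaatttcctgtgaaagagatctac
1700001J03Rik: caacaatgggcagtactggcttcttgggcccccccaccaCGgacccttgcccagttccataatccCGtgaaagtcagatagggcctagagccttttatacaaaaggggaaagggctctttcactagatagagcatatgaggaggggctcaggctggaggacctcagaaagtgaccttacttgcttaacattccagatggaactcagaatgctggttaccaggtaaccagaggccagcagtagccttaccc
Klf4: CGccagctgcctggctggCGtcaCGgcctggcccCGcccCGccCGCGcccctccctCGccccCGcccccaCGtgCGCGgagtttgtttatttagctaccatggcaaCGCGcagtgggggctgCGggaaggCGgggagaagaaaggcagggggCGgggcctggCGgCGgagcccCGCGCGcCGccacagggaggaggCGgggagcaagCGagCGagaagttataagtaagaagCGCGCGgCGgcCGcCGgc
Grem1: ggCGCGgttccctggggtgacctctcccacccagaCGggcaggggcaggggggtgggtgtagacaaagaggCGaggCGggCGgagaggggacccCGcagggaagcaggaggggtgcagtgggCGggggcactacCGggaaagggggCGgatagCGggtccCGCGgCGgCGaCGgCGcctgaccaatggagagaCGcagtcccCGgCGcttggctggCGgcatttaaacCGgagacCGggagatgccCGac
Id3: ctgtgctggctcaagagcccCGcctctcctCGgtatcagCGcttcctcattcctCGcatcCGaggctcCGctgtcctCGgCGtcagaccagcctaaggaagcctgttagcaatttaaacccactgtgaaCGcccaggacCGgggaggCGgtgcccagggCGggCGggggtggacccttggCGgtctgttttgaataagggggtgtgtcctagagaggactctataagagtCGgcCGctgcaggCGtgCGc
The Skint3 stretch holds 1 CG, that of 1700001J03Rik 2, Klf4 32, Grem1 24 and Id3 18.

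Each of these genes had 2 probes from 250 bp before to 50 bp after its start. Over the genes shown, the SMAD4 input fell in the order of the CpG count. In the SMAD2 and SMAD1/5 inputs 1700001J03Rik stood above Id3, and in the SMAD1/5 input above Klf4 too. Klf4, measured there by 45-base probes alone, averaged 5.88 in the SMAD1/5 input, 3.25 in the SMAD2 input and 2.63 in the SMAD4 input, high in all. Grem1, also with 45-base probes, averaged 2.78, 1.72 and 2.49 in the SMAD1/5, SMAD2 and SMAD4 inputs. Id3, with probes of 49 and 52 bases, lay near the median at 0.10 in the SMAD1/5 input, 0.42 in the SMAD2 input and 0.58 in the SMAD4 input. Skint3, with 60-base probes, averaged -1.04, -1.62 and -3.86 in the SMAD1/5, SMAD2 and SMAD4 inputs. The promoter of 1700001J03Rik, with 2 CG, averaged 6.79 in the SMAD1/5 input, 1.02 in the SMAD2 input, and -0.20 in the SMAD4 input. Its 2 probes there also form a SMAD1/5 patch of the kind described below. Over all genes with a promoter sequence, probes near the start of promoters with 15 or more CG exceeded those with 0 to 4 by 1.65 ± 0.075 and 1.68 ± 0.081 in the SMAD1/5 input, 1.16 ± 0.055 and 1.16 ± 0.060 in the SMAD2 input, and 1.65 ± 0.060 and 1.53 ± 0.065 in the SMAD4 input (SE over genes, each gene its probe mean). Of these probes, 68.4% and 69.4% had 45 bases at CpG-rich promoters, against 10.4% and 10.1% at CpG-poor ones. Among 60-base probes the difference was 0.22 ± 0.15 and 0.06 ± 0.16 in the SMAD1/5 input, 0.44 ± 0.11 and 0.32 ± 0.11 in the SMAD2 input, and 1.28 ± 0.12 and 1.12 ± 0.13 in the SMAD4 input. Among 45-base probes it was -0.10 ± 0.18 and 0.41 ± 0.16 in the SMAD1/5 input, -0.44 ± 0.12 and -0.41 ± 0.13 in the SMAD2 input, and 0.10 ± 0.11 and 0.12 ± 0.12 in the SMAD4 input. The SMAD4 input thus had a difference of over 1 log2 unit on 60-base probes, where the other inputs had less than 0.5, and almost none on 45-base probes. Of all 60-base probes, 54.2% and 78.7% were well above background in the SMAD1/5 input, 79.3% and 76.6% in the SMAD2 input, and 99.2% and 99.5% in the SMAD4 input. Over probes of any length well above background in all inputs, the CpG difference was 1.08 and 1.30 in the SMAD1/5 input. It was 0.64 and 0.73 in the SMAD2 input and 1.21 and 1.24 in the SMAD4 input. The part of weak signals in the 60-base contrast was not tested.

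Part of the upper tail of the SMAD1/5 input lay in small patches of the genome. At single probes it was at least 3 log2 units above both other inputs at 35749 of 456213 probes (7.84%), against 708 (0.155%) for the SMAD2 input and 1908 (0.418%) for the SMAD4 input. Neighbouring probes of this kind, at most 400 bp apart, formed 7603 patches of 2 or more probes in the SMAD1/5 input, against 12 in the SMAD2 input and 59 in the SMAD4 input. Of the SMAD1/5 probes past the limit, 49.1% on array 1 and 54.4% on array 2 lay in patches, and the others stood alone. Of the patches, 2225 held 3 or more probes and 42 held 6 or more. Their median span was 240 bp and the longest was 1429 bp. Within them the SMAD1/5 input averaged 5.84 ± 1.33 (SD over patches), against -0.19 ± 1.25 in the SMAD2 input and -0.15 ± 1.34 in the SMAD4 input. The limit itself picks probes where the SMAD1/5 input stands above both others, so these means are partly set by it. Of all SMAD1/5 probes past the limit, in patches or alone, 8.9999% and 6.22% lay within 250 bp of a start site on arrays 1 and 2, against 7.99% and 7.85% of all probes. On the low side, the SMAD1/5 input was at least 3 units below both others at 822 probes (0.18%), the SMAD2 input at 2279 (0.5%) and the SMAD4 input at 7169 (1.57%), which formed 504 patches in the SMAD4 input, against 2 after normexp correction, 66 after quantile normalization and 122 over probes well above background in all inputs. After quantile normalization, which gives the 3 inputs one distribution, 3079 SMAD1/5 patches stood beside 86 for SMAD2 and 566 for SMAD4, and after normexp correction, a background model with an added offset, 1796 beside 1 and 1.

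Id3 held 4 such patches along its 41 probes. In the patch at chr4:135521669-135521992, in the coordinates of the array annotation, its 3 probes read 6.31, 7.02 and 6.59 in the SMAD1/5 input, against 1.68, -0.19 and -0.94 in the SMAD2 input and 0.97, 0.66 and -0.42 in the SMAD4 input. The next probes downstream, at -144 and 37 bp from the start site, read 0.25 and -0.04 in the SMAD1/5 input, 1.23 and -0.40 in the SMAD2 input, and -0.25 and 1.40 in the SMAD4 input, so that the excess ended between -296 and -144 bp. The probes at -953 and -797 bp, on its other side, read -0.47 and -0.28 in the SMAD1/5 input, 0.80 and 0.82 in the SMAD2 input, and 1.97 and 1.82 in the SMAD4 input. Sox2, a pluripotency transcription factor, held 3 patches of 2 probes. That centred at -798 bp from its start averaged 5.96 in the SMAD1/5 input, 1.02 in the SMAD2 input and 0.22 in the SMAD4 input. Pou5f1, which encodes the pluripotency factor Oct4, held 2, at 2.57 and 4.58 in the SMAD1/5 input, -1.40 and -1.58 in the SMAD2 input, and -1.28 and 0.70 in the SMAD4 input. The longest patches, of 9 probes, lay at Pim1, a proto-oncogene kinase, at chr17:27681019-27682259 with means of 6.61, -0.15 and 1.43 in the SMAD1/5, SMAD2 and SMAD4 inputs, and at Slc25a34, of the mitochondrial carrier family, at chr4:141001571-141002999 with 6.58, 0.91 and 0.61. Bub1, a spindle checkpoint kinase, held a patch of 5 probes at chr2:127574741-127575552 with 7.83, 0.18 and 0.02, and Id1 one of 3 probes at chr2:152478104-152478459 with 7.21, 0.19 and 0.81.

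**Figure D3:**
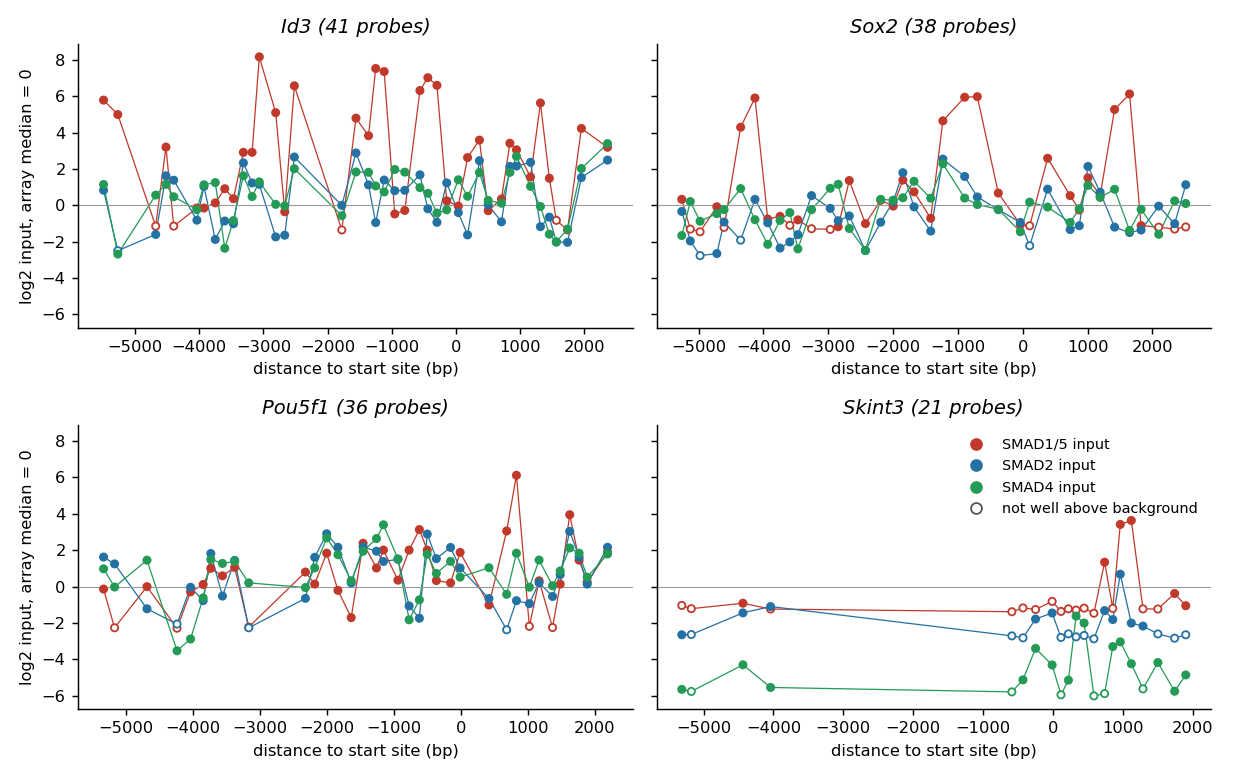
Log2 input of each probe by distance to the start site at Id3, Sox2, Pou5f1 and Skint3 in the 3 inputs, with open circles for probes not well above background. The SMAD1/5 input stands in narrow towers at Id3 and Sox2 and follows the others over most of Pou5f1, while the SMAD4 input is the lowest at Skint3 on this scale, which normexp correction turns against SMAD2.

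The share of genes holding a SMAD1/5 patch differed between gene groups. Patches touched 5999 of 16860 genes (35.6%), which had a median of 26 probes each. The share was 54.5% of 33 Hox genes and 56.5% of 23 mesoderm and endoderm genes, groups with a median of 40 probes a gene, 46.4% of 28 pluripotency genes (33 probes) and 45% of 20 BMP target genes (40 probes). It was 31.5% of 73 ribosomal protein genes (22 probes), 34.2% of 802 olfactory receptor genes (24 probes) and 23.1% of 39 replication-dependent histone genes (18 probes). Proteasome subunit genes had 48.6% with 22 probes a gene, and ectoderm and neural genes 26.1% with 39. The part of probe number in these shares was not tested.

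Gene by gene, as the mean over a gene's probes, the median gene lay at 0.56 in the SMAD1/5 input, 0.00 in the SMAD2 input and -0.02 in the SMAD4 input. For SMAD1/5 minus SMAD2, 4102 of 16860 genes were higher by at least 1 log2 unit (24.3%) and 36 lower (0.214%). For SMAD1/5 minus SMAD4, 5287 were higher (31.4%) and 97 lower (0.575%). For SMAD2 minus SMAD4, 640 were higher (3.8%) and 261 lower (1.55%). The median gene's difference was 0.75 on array 1 and 0.37 on array 2 for SMAD1/5 minus SMAD2, 0.86 and 0.49 for SMAD1/5 minus SMAD4, and 0.08 and 0.08 for SMAD2 minus SMAD4. Relative to that median gene, the counts higher and lower were 1053 and 324, 1306 and 884, and 509 and 380, in the same order of pairs. After quantile normalization they were 569 and 311, 904 and 1025, and 383 and 672. With 1 array per input these are differences between single hybridisations and have no replicate check.

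The genes with the widest excess of the SMAD1/5 input over SMAD2 were few-probe genes crossed by a patch. Olfr741, an olfactory receptor, averaged 3.74 ± 3.71 in the SMAD1/5 input, -1.30 ± 1.73 in the SMAD2 input and -2.56 ± 2.59 in the SMAD4 input (SD over 8 probes). Its excess lay in 5 neighbouring probes, at 6.69, 7.07, 5.94, 7.36 and 3.95 in the SMAD1/5 input, against -2.35, -2.48, -0.15, 2.17 and -2.45 in the SMAD2 input and -3.86, -5.74, -0.27, 1.58 and -2.42 in the SMAD4 input, while the probe at -626 bp from its start read -2.24 in the SMAD1/5 input, -0.20 in the SMAD2 input, and -1.35 in the SMAD4 input. Psg16, a pregnancy-specific glycoprotein, averaged 5.49 ± 4.36, 0.50 ± 0.96 and 0.56 ± 1.16 in the SMAD1/5, SMAD2 and SMAD4 inputs (8 probes), and its 4-probe patch averaged 9.03, 0.31 and 0.95. Probes annotated to Glo1 on chromosome 2, whereas the gene table has Glo1, glyoxalase I, on chromosome 17, averaged 5.25 ± 2.65, 0.39 ± 0.98 and 0.01 ± 1.32 (5 probes). Taf9, a subunit of the general transcription factor TFIID, averaged 1.86 ± 3.30 in the SMAD1/5 input, -1.96 ± 0.58 in the SMAD2 input, and 0.00 ± 1.57 in the SMAD4 input (7 probes), which also made it the lowest for SMAD2 minus SMAD4 at -1.96. Against SMAD4, the widest besides Olfr741 and Glo1 were Nr6a1, an orphan nuclear receptor, with a difference of 5.21 ± 4.55 over 5 probes, and Agrn, the synapse organiser agrin, with 5.06 ± 2.99 over 7.

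Differences in the reverse direction were smaller, with smaller SDs over probes. Lowest for SMAD1/5 minus SMAD2 was Ndufb10, a subunit of respiratory complex I, at 0.05 ± 1.46 in the SMAD1/5 input, 1.38 ± 0.74 in the SMAD2 input and 0.53 ± 0.98 in the SMAD4 input (13 probes). Mien1 followed with a difference of -1.27 ± 1.68, the cytochrome P450 gene Cyp4f16 with -1.26 ± 1.26 and the protocadherin Pcdhb12 with -1.24 ± 1.56. Lowest for SMAD1/5 minus SMAD4 was Cenpt, an inner kinetochore protein, at -0.20 ± 1.25 in the SMAD1/5 input, 1.02 ± 0.85 in the SMAD2 input and 2.14 ± 0.99 in the SMAD4 input (9 probes). Tlcd1 had a difference of -2.14 ± 1.26, Wdr83os -2.002 ± 1.93 and Dbil5 -1.82 ± 1.36. Cenpt and Wdr83os lie on chromosome 8 and Tlcd1, Dbil5 and Mien1 on chromosome 11, while Ndufb10 and Cyp4f16 lie on chromosome 17 and Pcdhb12 on chromosome 18. The part of the chromosome levels given below in these differences was not tested. Cdk4, on chromosome 10, a cyclin-dependent kinase of the G1 phase from the cell cycle list, was also lower for SMAD1/5 minus SMAD4. It averaged -0.21 ± 1.28 in the SMAD1/5 input, 0.16 ± 0.93 in the SMAD2 input, and 1.58 ± 0.68 in the SMAD4 input (9 probes).

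The transcriptional targets of BMP and Activin signalling and the pluripotency genes form short lists, and the shares called moved with the scaling. Of 20 BMP target genes, 5 were higher in the SMAD1/5 than in the SMAD2 input (25% against 24.3% of all genes) and 9 were higher than in the SMAD4 input (45% against 31.4%), with 0 lower. The count against SMAD4 was 1 relative to the median gene (5%, against 7.75% of all genes). It was 3 with centring within probe length (15%, against 27.7%). Under normexp correction and under quantile normalization it was 0, against 3.64% and 5.36% of all genes. Their medians were 0.70 in the SMAD1/5 input, 0.11 in the SMAD2 input and 0.13 in the SMAD4 input. Relative to the median gene, the median BMP target differed by 0.12 for SMAD1/5 minus SMAD2 and by 0.13 for SMAD1/5 minus SMAD4, the median Activin and Nodal target by 0.21 and -0.22, and the median pluripotency gene by -0.04 and -0.38. Id3 had the largest difference, at 2.59 ± 2.92 in the SMAD1/5 input, 0.30 ± 1.58 in the SMAD2 input, and 0.60 ± 1.34 in the SMAD4 input (41 probes), and Gata3, a zinc finger factor, followed at 1.25 ± 2.76, -0.51 ± 1.51 and 0.16 ± 1.23. Of 19 Activin, Nodal and TGF-beta target genes, 4 (21.1%) and 3 (15.8%) were higher in the SMAD1/5 than in the SMAD2 and SMAD4 inputs, among them Foxa2, an endoderm factor, at 1.30 ± 2.59, -0.25 ± 1.53 and -0.25 ± 1.32. Of 28 pluripotency genes, 4 (14.3%, against 24.3% of all genes) and 3 (10.7%, against 31.4%) were higher, among them Klf4 at 1.59 ± 2.52, 0.22 ± 1.80 and 0.40 ± 1.65. Under normexp correction and under quantile normalization, 0 Activin targets and 0 pluripotency genes were higher in either pair. Of all genes, 4.86% and 3.64% were higher under normexp correction and 3.37% and 5.36% under quantile normalization. Under quantile normalization, 3 Activin targets (15.8%) and 5 pluripotency genes (17.9%) were lower in the SMAD1/5 than in the SMAD4 input, against 6.08% of all genes. Relative to the median gene, 0 and 1 Activin targets and 0 and 0 pluripotency genes were higher, against 6.25% and 7.75% of all genes. Pou5f1 averaged 0.65 ± 1.86, 0.55 ± 1.56 and 0.77 ± 1.44 in the SMAD1/5, SMAD2 and SMAD4 inputs, and Sox2 0.74 ± 2.48, -0.60 ± 1.36 and -0.22 ± 1.07. Kdm6b, a histone H3 lysine demethylase, was nearly even at 1.06 ± 1.82, 0.98 ± 1.44 and 1.05 ± 1.26 (84 probes). Smad7, the inhibitory SMAD, had 0.76 ± 1.77, 0.26 ± 1.59 and 0.54 ± 1.78, Nodal, the ligand, 1.18 ± 2.50, 0.19 ± 1.45 and 1.12 ± 1.19, and Lefty1, its antagonist, 1.02 ± 1.84, 0.66 ± 1.61 and 1.19 ± 1.40. Dpysl2, which acts in axon growth, was lowest in the SMAD4 input, at -0.20 ± 1.89, 0.11 ± 1.32 and -1.05 ± 1.48.

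Families of sensory receptors had low inputs. The olfactory receptor genes, with 802 measured, had a median of -0.30 in the SMAD1/5 input, -1.02 in the SMAD2 input and -1.70 in the SMAD4 input. The 136 vomeronasal and taste receptor genes had -0.32, -0.98 and -1.69, and the 16 killer cell lectin-like receptor genes, which act on natural killer cells, 0.28, -0.68 and -1.66. These families separated the SMAD2 and SMAD4 inputs: SMAD2 minus SMAD4 was higher by at least 1 for 214 of the olfactory genes (26.7%), 39 of the vomeronasal and taste genes (28.7%) and 8 of the lectin-like genes (50%), against 3.8% of all genes, and lower for 0. For SMAD1/5 minus SMAD4 the shares were 71.2%, 77.2% and 87.5%, against 31.4% of all genes. These shares were 29.6%, 18.4% and 6.25% under normexp correction (all genes 3.64%), 28.4%, 27.2% and 37.5% under quantile normalization (all genes 5.36%), and 32.9%, 31.6% and 37.5% relative to the median gene (all genes 7.75%). Over probes well above background in all inputs, 176 of 694, 31 of 116 and 5 of 14 were higher for SMAD2 minus SMAD4. These were 25.4%, 26.7% and 35.7%, against 3.95% of all genes, with medians of 0.65, 0.71 and 0.76. With centring within probe length 327, 58 and 11 were higher (40.8%, 42.6% and 68.8%, all genes 5.54%). Under quantile normalization 69, 8 and 3 were higher for SMAD2 minus SMAD4 (8.60%, 5.88% and 18.8%, all genes 2.27%). Under normexp correction 7, 0 and 0 were (0.873%, 0% and 0%, all genes 0.243%), where the median differences of the families were 0.01, 0.01 and 0.05. No probe of the SMAD1/5 or SMAD2 input lay below -2.94, while the SMAD4 input went down to -6.23. Near-identical copies occur in these families, and the part of cross-hybridisation was not tested. At the other end, 73 ribosomal protein genes had a median of 0.80 in the SMAD1/5 input, 0.27 in the SMAD2 input and 0.63 in the SMAD4 input. Of the ribosomal genes, 19 (26.0%) and 16 (21.9%) were higher in the SMAD1/5 than in the SMAD2 and SMAD4 inputs, against 24.3% and 31.4% of all genes. In the SMAD2 input 4 (5.48%) were lower than in the SMAD4 input, against 1.55% of all genes. The median ribosomal difference SMAD1/5 minus SMAD4 was 0.19, but -0.58 under quantile normalization, -0.40 relative to the median gene and -0.20 under normexp correction. Among them Rps28, of the small subunit, had 0.42 ± 1.48, 0.01 ± 1.60 and 1.79 ± 0.37 in the SMAD1/5, SMAD2 and SMAD4 inputs (6 probes).

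**Figure D4:**
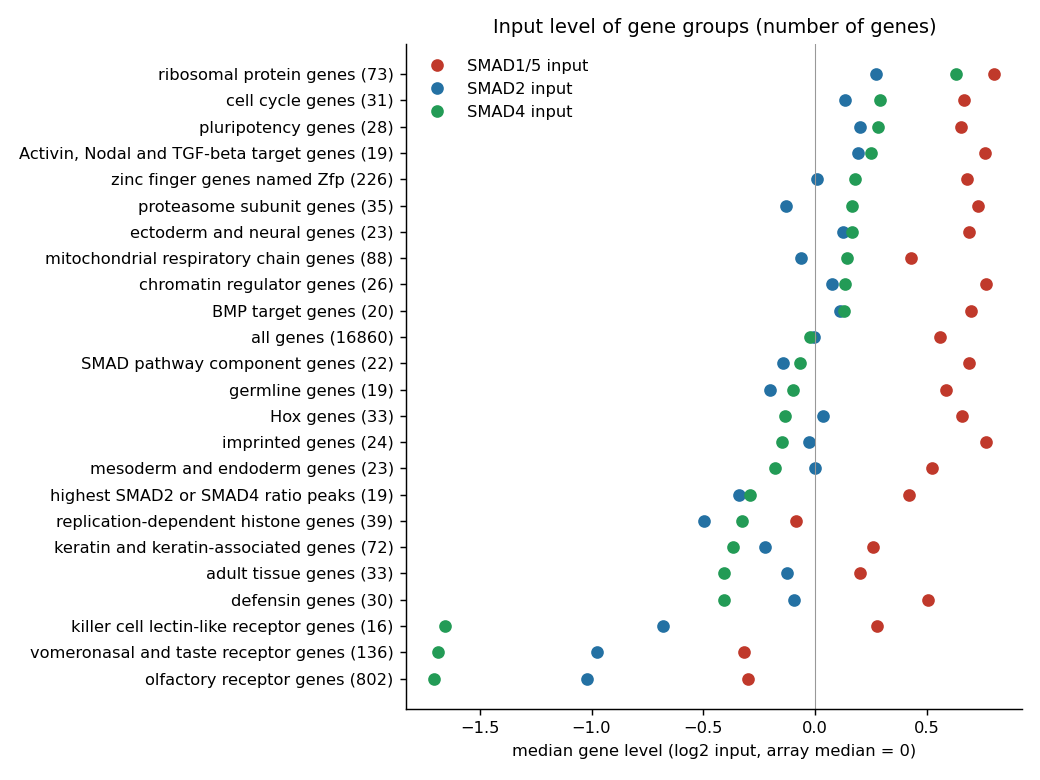
Median gene level (log2 input, array median at 0) of each gene group in the 3 inputs, with the number of genes in brackets. Olfactory, vomeronasal and taste, and killer cell lectin-like receptor genes lie lowest, with the SMAD4 input below -1.6 in each, and on this centring the SMAD1/5 input is the highest in every group, an order that quantile normalization turns for several groups, the ribosomal protein and pluripotency genes among them.

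Other fixed lists held single genes with wide differences. Of 24 imprinted genes, expressed from one parental copy, 10 were higher in the SMAD1/5 than in the SMAD4 input (41.7%, against 31.4% of all genes). Among them were Peg10 at 1.40 ± 2.76 in the SMAD1/5 input, -0.18 ± 1.85 in the SMAD2 input and -0.99 ± 2.03 in the SMAD4 input, and Cdkn1c, a cyclin-dependent kinase inhibitor, at 1.48 ± 2.61, 0.11 ± 1.65 and -0.86 ± 1.65. Under quantile normalization 2 imprinted genes were higher (8.33%, against 5.36% of all genes) and 2 lower (8.33%, against 6.08%). Under normexp correction 0 were higher (all genes 3.64%) and 1 lower (4.17%, against 0.735% of all genes). Without these corrections, 9 of 33 adult tissue genes were higher in the SMAD1/5 than in the SMAD4 input (27.3%), with Ckm, the muscle creatine kinase, at 2.63 ± 2.97, 0.47 ± 1.14 and -0.40 ± 1.29. Of 33 Hox genes 8 were higher (24.2%). Of 26 chromatin regulator genes 6 were (23.1%), and Bmi1, a Polycomb component, averaged 2.07 ± 2.48, -0.23 ± 1.53 and 0.80 ± 1.01. Zic1, a neural zinc finger factor, was high at 2.15 ± 1.72, 0.16 ± 1.34 and -0.72 ± 1.12 over 11 probes, and Gdf3, a TGF-beta family ligand, was lower in SMAD2 than in both others, at 0.98 ± 2.37, -0.25 ± 1.45 and 1.05 ± 1.31.

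Single genes marked the ends of the scale. The lowest means over the 3 inputs were those of Olfr1475, at -1.97 ± 0.44 in the SMAD1/5 input, -2.48 ± 0.19 in the SMAD2 input and -4.46 ± 1.58 in the SMAD4 input (8 probes), and of Skint9 and Skint3. Of its probes, 2 were well above background in the SMAD1/5 input, 0 in the SMAD2 input and 7 in the SMAD4 input, so no fold between SMAD1/5 and SMAD2 is given. Skint3 averaged -0.59 ± 1.49, -2.15 ± 0.87 and -4.64 ± 1.32 in the SMAD1/5, SMAD2 and SMAD4 inputs, with 6, 10 and 15 of its 21 probes well above background, and Skint9 -0.91 ± 0.80, -2.03 ± 1.29 and -4.80 ± 1.37. Together they formed the longest stretch of low SMAD4 input, 28 probes at chr4:111603343-111810673 with medians over its probes of -1.21, -2.60 and -4.99 in the SMAD1/5, SMAD2 and SMAD4 inputs. Of 20 stretches in which the SMAD4 input stayed at or below -4 over 15-probe running medians, 9 held Olfr genes, and 1 lay at Csn2, which encodes the milk protein beta-casein. Of the 16860 genes measured, 802 were olfactory receptors. Cyp2b9, a hepatic cytochrome P450, and Olfr633 also stood low in that input, at -0.30 ± 1.40, -1.02 ± 1.31 and -3.58 ± 1.74 for Cyp2b9 and 0.08 ± 1.77, 0.50 ± 0.80 and -2.48 ± 1.36 for Olfr633. Under normexp correction SMAD2 minus SMAD4 turned to -0.27 for Skint3, -0.11 for Skint9 and -0.38 for Olfr1475, so that the direction between those inputs at these dim genes depends on the background model.

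High levels shared by all inputs came in stretches. Running medians of 15 probes were at least 1.5 in every input in 256 stretches, which held 895 probes. The longest held 37 probes at chr17:13245143-13261272, over Tcte3, a dynein light chain gene of the t-complex, Ermard and 9030025P20Rik, with medians of 3.89 in the SMAD1/5 input, 2.22 in the SMAD2 input and 2.86 in the SMAD4 input. All 37 probes were well above background in each. The next, of 22 probes at chr13:45701508-45715225, held probes annotated to Dynlt1b, another dynein light chain gene, and Tmem181a, with 3.34, 2.24 and 2.74. Probes annotated to Pigt, a subunit of the GPI transamidase, at chr17:38059684-38066890, had 5.72, 2.87 and 4.10, although the gene table has Pigt on chromosome 2. Tcte3 as a gene averaged 3.90 ± 2.11, 1.88 ± 0.93 and 2.72 ± 1.02 over 28 probes, and Map1s, a microtubule-associated protein, 3.72 ± 1.102, 2.22 ± 0.76 and 1.85 ± 1.06 over 6. Under normexp correction the SMAD1/5 input lay below the others at these genes, with SMAD1/5 minus SMAD4 at -1.16 for Tcte3, -1.20 for Ermard, -1.099 for Pigt and -0.35 for Map1s, so the order of the inputs there is not settled. Stretches at or below -1 in all inputs numbered 2614, of which 756 held Olfr genes. Olfactory receptors were 802 of the 16860 genes measured. The longest held 58 probes, at Prl8a2, Prl2b1 and Prl8a6 of the prolactin family on chromosome 13, at -1.60, -1.77 and -2.03, and at Lce1d, Lce1e, Lce1f and Lce1g, late cornified envelope genes of the epidermis, on chromosome 3, at -1.11, -1.25 and -2.32.

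On the scale of whole chromosomes, 8 and 11 stood above the other autosomes in all 3 inputs. Gains of these chromosomes recur in cultured mouse embryonic stem cells, and no karyotype is given in the labels. The median chromosome 8 probe lay at 0.44 in the SMAD1/5 input, 0.45 in the SMAD2 input and 0.62 in the SMAD4 input, which is 0.49, 0.50 and 0.69 above the median of the other autosomes on array 1. Chromosome 11 lay at 0.37, 0.43 and 0.62, which is 0.46, 0.53 and 0.75 above the others on array 2. As folds these are 1.40, 1.42 and 1.61 for chromosome 8 and 1.37, 1.44 and 1.68 for chromosome 11. The 18 other autosomal parts lay between -0.34 and 0.17 from their array's other autosomes in the SMAD1/5 input, between -0.40 and 0.16 in the SMAD2 input and between -0.38 and 0.12 in the SMAD4 input. The excess ran along both chromosomes. Of 26 bins of 5 Mb on chromosome 8, 23, 24 and 25 had medians above that of the other bins of array 1 in the SMAD1/5, SMAD2 and SMAD4 inputs, and on chromosome 11 all 25 did in each. Over probes well above background in all 3 inputs, chromosome 8 exceeded the others by 0.11, 0.22 and 0.53, and chromosome 11 by 0.27, 0.31 and 0.63, and under normexp correction the SMAD1/5 excess was 0.050 for chromosome 8 and 0.018 for chromosome 11. The size in the SMAD1/5 and SMAD2 inputs thus moved with the treatment of weak signals, while the SMAD4 input kept 0.53 or more under each of these alternatives.

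**Figure D5:**
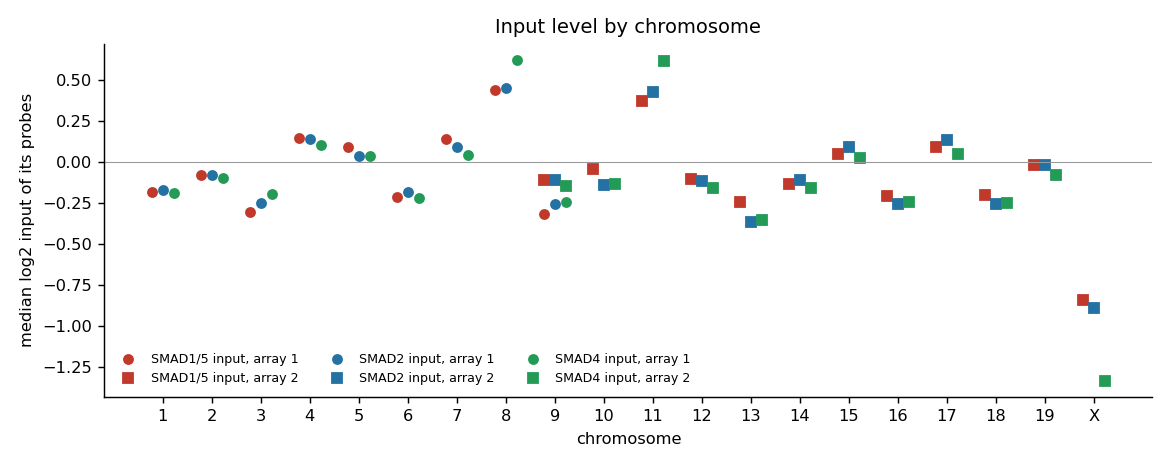
Median log2 input of each chromosome's probes, with the array's autosomal median at 0, for the 3 inputs, with circles for array 1 and squares for array 2. Chromosomes 8 and 11 stand above 0.37 in each input and X below -0.83, while every other autosome lies between -0.37 and 0.15.

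Between inputs, few 5 Mb bins differed by over 0.5 log2 units. Relative to the median of the array, 2 of 482 bins departed by over 0.5 log2 units for SMAD1/5 minus SMAD2, 23 for SMAD1/5 minus SMAD4 and 8 for SMAD2 minus SMAD4, and the SD over bins was 0.12, 0.24 and 0.19. The widest, for SMAD1/5 minus SMAD4, was the bin from 85 to 90 Mb of chromosome 2, with medians of -1.11 in the SMAD1/5 input, -1.51 in the SMAD2 input and -2.05 in the SMAD4 input over 2122 probes. It holds low stretches over Olfr998 to Olfr1009, Olfr1093 to Olfr1094 and Olfr1182 to Olfr1184. At the other end for SMAD1/5 minus SMAD4, the lowest bins lay on chromosome 11, at -0.63, and on chromosome 8, at -0.61 and -0.60. Without chromosomes 8 and 11, 2, 17 and 7 of 431 bins departed by 0.5 or more, in the order of pairs above.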

How the data were processed

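Intensities of the green (Cy3) channel and its spot flags were taken as deposited in the scanner files of 6 Agilent 2-colour arrays, which the authors made with Feature Extraction 9.1.3.1 for SMAD1/5 and SMAD2 and 9.5.3.1 for SMAD4, per the file headers. That software had background-subtracted and dye-normalized the processed signal. The depth of an array is not a count, and 1 array per input and design limits the precision.

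Log2 processed signals were centred on each array's autosomal median, with no loess or quantile step. Control spots, outliers in any input of a design and other chromosomes were left out. Of 18517 annotation names, 16204 were matched by RefSeq accession, 391 by symbol and 319 by older symbol, and the others were kept. Genes needed 5 probes and were called at a mean difference of 1 log2 unit. With 1 sample per group no test was run. The deposited tables of ratios were not used. The build of the probe positions is not stated in these sources, and promoter sequences are RefSeq's, in GRCm38.p6.

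Named genes were, for each pair of inputs, the 4 highest and 4 lowest called genes, the 5 highest and 5 lowest levels, 2 members of each list with the largest called difference, and 17 further genes; the longest patches and stretches were named by rank after their values were seen. Members and lists were chosen with earlier results of these data known. Alternatives were normexp correction (limma 3.58.1 in R 4.3.3, offset 50), a filter on dim probes, quantile normalization, other probe minimums, gene medians, other centring and outlier flags, and, chosen after seeing the data, the median gene as zero, centring within probe length, 60-base probes alone and recounted patches. Calculations used Python 3.11.15, pandas 2.3.3 and numpy 2.4.6 and were tested on simulated data.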

Additional observations from a re-analysis of the deposited data

Results flagged for a closer look

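Mitochondrial probes, which lie outside the autosomal comparisons, carried signal far above the autosomal median in every input. The median of the 47 probes was 6.24 log2 units in the SMAD1/5 input, 3.102 in the SMAD2 input and 3.87 in the SMAD4 input, which is 75.6, 8.59 and 14.6 times the autosomal median. All 47 were well above background in each input, and 0 were saturated.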

How the results depend on the processing

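No paired analysis was possible because each group holds 1 array, so that the groups share 1 replicate number, fewer than a paired fit needs. No sign turned for the chromosome differences or Pearson's r under the alternatives run. More genes were lower than higher for SMAD2 minus SMAD4 under normexp correction and quantile normalization, and for SMAD1/5 minus SMAD4 under quantile normalization. Of the gene counts, chromosome differences and Pearson's r many sizes moved (22 of 60, 18 of 54 and 9 of 30 recomputed values), and of 36 start-site and 36 CpG values 7 and 3 turned sign. The normexp offset of 50 exceeds the median background-subtracted signal of the SMAD1/5 input, 18.5 and 33.0. The SMAD1/5 input was dimmest, with a median of 2.33 and 2.74 times its local background, against 7.51 and 7.07 in the SMAD2 input and 5.32 and 5.25 in the SMAD4 input. The cause of the changes below was not tested, and values are in the order SMAD1/5, SMAD2, SMAD4 where 3 are given.

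With 60-base probes alone, near minus upstream of start sites was -0.0081, -0.028 and 0.12 on array 1 and -0.18, 0.029 and 0.19 on array 2, and CpG-rich minus CpG-poor was 0.22, 0.44 and 1.28, then 0.057, 0.32 and 1.12. Centred within probe length, the start-site values were -0.22, -0.17 and 0.25, then -0.040, -0.18 and 0.21, and the CpG values -0.17, -0.13 and 0.68, then 0.15, -0.16 and 0.60. Chromosome 8 then exceeded the others by 0.30 (SMAD1/5) and 0.36 (SMAD2), chromosome 11 by 0.37 (SMAD2), and X lay at -0.60 (SMAD2). Pearson's r was 0.34, 0.27 and 0.41 on array 1 and 0.40, 0.30 and 0.41 on array 2, and 21 SMAD2 patches were found.

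Under normexp correction, SMAD1/5 minus SMAD2 had 819 genes higher and 86 lower, SMAD1/5 minus SMAD4 613 higher, and SMAD2 minus SMAD4 41 higher and 90 lower. Start-site values were 0.40, 0.63 and 0.67 on array 1 and 0.15 (SMAD1/5) and 0.67 (SMAD4) on array 2. CpG values were 0.57, 0.87 and 1.02, then 0.27 (SMAD1/5) and 1.09 (SMAD4). Chromosome 8 differed by 0.050 (SMAD1/5) and 0.58 (SMAD4), chromosome 11 by 0.018 (SMAD1/5) and X by -0.021 (SMAD1/5) and -0.91 (SMAD4). Pearson's r between SMAD1/5 and SMAD2 was 0.38 and 0.29, and between SMAD1/5 and SMAD4 0.30 on array 2. Patches numbered 1796, 1 and 1 above and 2 below in SMAD4. SMAD2 minus SMAD4 turned to -0.076 for Klri2, -0.41 for Olfr66, -0.27 for Skint3, -0.11 for Skint9, -0.38 for Olfr1475, -0.075 for Olfr194 and -0.19 for Olfr741. SMAD1/5 minus SMAD2 and minus SMAD4 turned to -0.69 and -0.35 for Map1s, -0.76 and -1.20 for Ermard, -0.32 and -1.099 for Pigt, and -0.42 and -1.16 for Tcte3.

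Over probes well above background in all inputs, start-site values were 0.87, 0.56 and 0.80, then 0.92 and 0.58 (SMAD1/5, SMAD2), and CpG values 1.08, 0.64 and 1.21, then 1.30, 0.73 and 1.24. Chromosome 8 differed by 0.11, 0.22 and 0.53, chromosome 11 by 0.27 and 0.31 (SMAD1/5, SMAD2) and X by -0.43, -0.45 and -1.05. Patches numbered 3 (SMAD2) and 20 (SMAD4) above and 122 below (SMAD4). With all outlier flags 34 SMAD4 patches were found.

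Under quantile normalization the genes higher and lower were 569 and 311, 904 and 1025, and 383 and 672 for SMAD1/5 minus SMAD2, SMAD1/5 minus SMAD4 and SMAD2 minus SMAD4. Start-site values were 0.95 (SMAD1/5) and 1.20 (SMAD4), then 0.91 and 1.07, CpG values 1.36 and 1.39 (SMAD1/5), and chromosome 8 differed by 0.87 (SMAD4). Patches numbered 3079, 86 and 566 above and 66 below (SMAD4). SMAD1/5 minus SMAD2 and minus SMAD4 turned to -0.45 and -0.30 for Map1s and -0.23 and -1.39 for Ermard, and SMAD1/5 minus SMAD4 to -1.14 for Pigt and -1.06 for Tcte3. Relative to the median gene, SMAD1/5 minus SMAD2 had 1053 higher and 324 lower and SMAD1/5 minus SMAD4 1306 and 884. With gene medians they had 2312 and 78, and 3273 and 278, SMAD2 minus SMAD4 had 394 lower, and SMAD1/5 minus SMAD2 turned to -0.091 for Tex101. Genes lower for SMAD1/5 minus SMAD2 numbered 55 with at least 3 probes per gene and 22 with at least 8.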

Other observations

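The 17316 X probes had a median of -0.84 in the SMAD1/5 input, -0.89 in the SMAD2 input and -1.33 in the SMAD4 input, which is 0.593, 0.578 and 0.437 times the median of the autosomes without 8 and 11 on array 2. Over probes well above background in all inputs these ratios were 0.770, 0.763 and 0.527, and under normexp correction X differed by -0.021 log2 units in the SMAD1/5 input. The 204 Y probes had medians of -0.17, -0.56 and -1.02 in the SMAD1/5, SMAD2 and SMAD4 inputs, with SDs of 2.26, 1.78 and 2.14.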
